A study of Mus musculus with 18 samples.

Results

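The genes described here are 36 interferon-stimulated antiviral genes, chosen by symbol as rows of a gene table with 18668 symbols. All 36 had a row and all 36 passed the filter on low values, so every member was tested. They were measured by RNA-seq of bone marrow-derived macrophages (BMDM), macrophages grown from mouse marrow with the growth factor M-CSF, on a C57BL6 background. The labels give total RNA, and the study's methods describe a poly(A) type of selection for its RNA-seq libraries without naming these ones. All cells were labelled as lacking Apoe, the gene of apolipoprotein E, whose loss makes mice prone to atherosclerosis. The Apoe-/- group had no other deletion and the DKO group also lacked Treml4, a receptor of the TREM family on myeloid cells. Each genotype was left untreated (PBS vehicle) or given oxidized low-density lipoprotein (oxLDL), the modified lipid particle that macrophages take up to become foam cells, at 10 or 60 µg/ml (oxLDL 10 and oxLDL 60). There were 3 biological replicates in each of the 6 groups, 18 libraries in all. The series' design text gives 16 h of oxLDL, the study's methods name a longer exposure, and a treatment label names LPS, so the exposure is given here as stated without choosing between them. The libraries named replicate 1, 2 or 3 within a genotype deviated together across genes and are called 1 animal each here. The sample titles give only replicate numbers and name no animals. The main fit took all 18 libraries as separate. The pairing entered only in an alternative fit and in the comparisons within animals.

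Type I interferons bind a receptor made of IFNAR1 and IFNAR2, which acts through the kinases JAK1 and TYK2. Their signal forms ISGF3, a factor that contains IRF9 and binds the interferon-stimulated response element (ISRE) in the promoters of a large set of target genes. Their products sense viral RNA, degrade or sequester it, block viral entry and assembly, or tag proteins with the ubiquitin-like ISG15, and macrophages keep a low tonic output of them even without infection.

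The ISRE is built around pairs of GAAA, and promoter windows of some members that hold such a pair are printed below. These members had different sizes of change. Each window was placed around a match, so that the windows are alike in holding one is no result. Of the 36 members, 27 had an entry in the RefSeq promoter table (GRCm38.p6), which covers 250 bases before and 50 after the transcription start. The motif searched was GAAA, any 2 bases and again GAAA, on both strands, and matches may overlap. It occurred in 15 of the 27 members with an entry (55.6%) and in 3.99% of the 27025 genes of the table. The windows below run 5′ to 3′ along each gene's own strand, are 100 bases long and end before the transcription start, with motif matches in capitals and overlapping matches run together.
Isg15, chr4:156200830-156200929, minus strand: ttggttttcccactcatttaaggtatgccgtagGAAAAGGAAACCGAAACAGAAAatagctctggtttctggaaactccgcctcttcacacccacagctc
Ifit1, chr19:34640759-34640858, plus strand: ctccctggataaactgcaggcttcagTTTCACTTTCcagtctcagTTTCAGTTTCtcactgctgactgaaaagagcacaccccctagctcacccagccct
Ifit3, chr19:34583362-34583461, plus strand: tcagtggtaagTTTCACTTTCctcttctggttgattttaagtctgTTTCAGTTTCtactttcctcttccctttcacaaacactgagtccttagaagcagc
Rsad2, chr12:26456518-26456617, minus strand: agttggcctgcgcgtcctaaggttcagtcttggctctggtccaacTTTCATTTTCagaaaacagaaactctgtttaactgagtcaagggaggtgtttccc
Oas1a, chr5:120907526-120907625, minus strand: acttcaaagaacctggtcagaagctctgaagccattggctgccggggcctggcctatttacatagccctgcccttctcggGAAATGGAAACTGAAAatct
Bst2, chr8:71537542-71537641, minus strand: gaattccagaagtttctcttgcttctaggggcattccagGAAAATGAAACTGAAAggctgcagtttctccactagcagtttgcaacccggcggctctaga

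Isg15 held 3 overlapping matches, Ifit1, Ifit3, Oas1a and Bst2 held 2 each and Rsad2 held 1. Counted from the transcription start, with bases before it negative, the Ifit1 matches began at -104 and -85 and those of Ifit3 at -156 and -122, all on the opposite strand. In Oas1a they began at -20 and -14, and Oas1g held a like pair at -18 and -12. Matches were also found in Ifih1, Ddx58, Eif2ak2, Oas3, Ifitm3, Slfn5, Slfn8 and Trim30a. The windows of Ifit2, Oasl1, Oasl2, Herc6, Cmpk2, Isg20, Dtx3l, Samd9l, Xaf1, Ifi35, Ifi44 and Phf11d held no match, which says only that these letters were not in those windows. Dhx58, Zbp1, Oas2, Usp18, Mx1, Mx2, Parp9, Parp14 and Rtp4 had no entry. Members with and without a match both covered a wide range of the changes described below. The median log2 fold change at oxLDL 60 in Apoe-/- cells was -1.58 over the 15 members with a match, from -3.96 to -0.33, and -1.78 over the 12 without, from -3.27 to -0.87. Of the genes printed above, Ifit1 lies at one end of that range and Bst2 and Oas1a near the other.

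Members also share position. All 36 lie on 13 chromosomes of GRCm38.p6, and 18 of them fall in 7 clusters in which neighbouring members are at most 250 kb apart. Chromosome 19 carries Ifit2, Ifit3 and Ifit1 at chr19:34550550-34650009. Oas2, Oas3, Oas1g and Oas1a lie at chr5:120730333-120907544, and Oasl2 with Oasl1 at chr5:114896926-114937911. Rsad2 and Cmpk2 are neighbours at chr12:26442743-26479837. Parp14, Dtx3l and Parp9 lie at chr16:35831892-35972621, Mx1 and Mx2 at chr16:97447035-97560901, and Slfn5 and Slfn8 at chr11:82951349-83020810. Genes of such families can share reads. In GENCODE M21 transcripts, 57.6% of the 50-base words of Oas1a also occurred in Oas1g, and 51.2% of those of Ifit3 in Ifit3b, so the split of reads within these pairs is uncertain. Slfn8, Herc6 and Rtp4 shared 14.6%, 12.5% and 11.6% of their words with other genes, and each of the other members shared 10% or less, except Oas1g, which shared 45.7%.

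The file gave RPKM, reads scaled by gene length and library size, and not counts. Steps in the low values placed the depth at about 38300000 to 52700000 reads per library, an approximate figure because only 26.6 to 36.5% of low genes came out within 0.05 of a whole read. At that depth 3 reads in a gene of 2000 bases are worth 0.0284 to 0.0391 RPKM, and the lowest value of any member was 0.334 RPKM (Mx2). Treml4 was listed at 0 in 8 of 9 DKO libraries and at 0.0116 RPKM in DKO untreated replicate 2, against 1.86 to 8.39 RPKM in the Apoe-/- libraries. Apoe itself was listed at 0.937 to 4.13 RPKM in the Apoe-/- and 0.349 to 1.39 RPKM in the DKO libraries, and with no wild-type cells here these levels have nothing to be set against. Xist was above 1 RPKM in the libraries of Apoe-/- replicate 2 and DKO replicate 3 and below 0.1 RPKM elsewhere. All 8 macrophage markers listed were present, with summed levels of 5560 to 11964 RPKM. The 7 lymphocyte markers were under 0.1 RPKM in every library, as were 5 of 6 dendritic cell markers, and plasmacytoid dendritic cell markers summed to 0.294 to 1.03 RPKM. Neutrophil markers summed to 30.1 to 82.3 RPKM.

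Untreated macrophages of both genotypes expressed all of these genes. The mean in untreated Apoe-/- cells was highest for Ifitm3, at 618 RPKM, followed by Bst2 at 166 RPKM and Oas1a at 85.4 RPKM, and lowest for Isg20 at 2.84 RPKM. The median over members was 30.2 RPKM, and 31 of 36 lay between 10 and 100 RPKM.

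Nearly the whole set was lower at oxLDL 60. In Apoe-/- cells 34 of 36 members were called lower and none higher, where a call needed an adjusted p under 0.05 and at least a 1.4-fold change, and 6.78% of all 12838 genes tested were called lower. In DKO cells 35 of 36 were called lower and none higher, against 7.31% of all genes. The median log2 fold change of the members was -1.93 in Apoe-/- and -1.89 in DKO cells, and that of all genes 0.061 and -0.063. For all 36 members every oxLDL 60 library lay below every untreated library in both genotypes, an arrangement found in 14.9% of all genes in Apoe-/- and 28.3% in DKO cells. Macrophage markers went both ways. Of the 8 listed, 4 were called lower and 1 higher at oxLDL 60 in Apoe-/- cells, and 3 lower and 1 higher in DKO cells. Cd14 had log2 fold changes of -1.61 and -1.81 (limma adjusted p = 3.56e-07 and 9.98e-08) and Mertk of 0.68 and 0.70 (limma adjusted p = 0.0147 and 0.0143), both chosen after their values were seen. The summed marker level, most of it Lyz2, was 8932 to 11764 RPKM untreated and 6529 to 8483 RPKM at oxLDL 60 in Apoe-/- cells, and 8383 to 10951 and 5560 to 7152 RPKM in DKO cells. The part of these markers in the changes of the members was not tested. In such bulk libraries fewer cells of a type and less RNA per cell cannot be told apart.

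**Figure D1:**
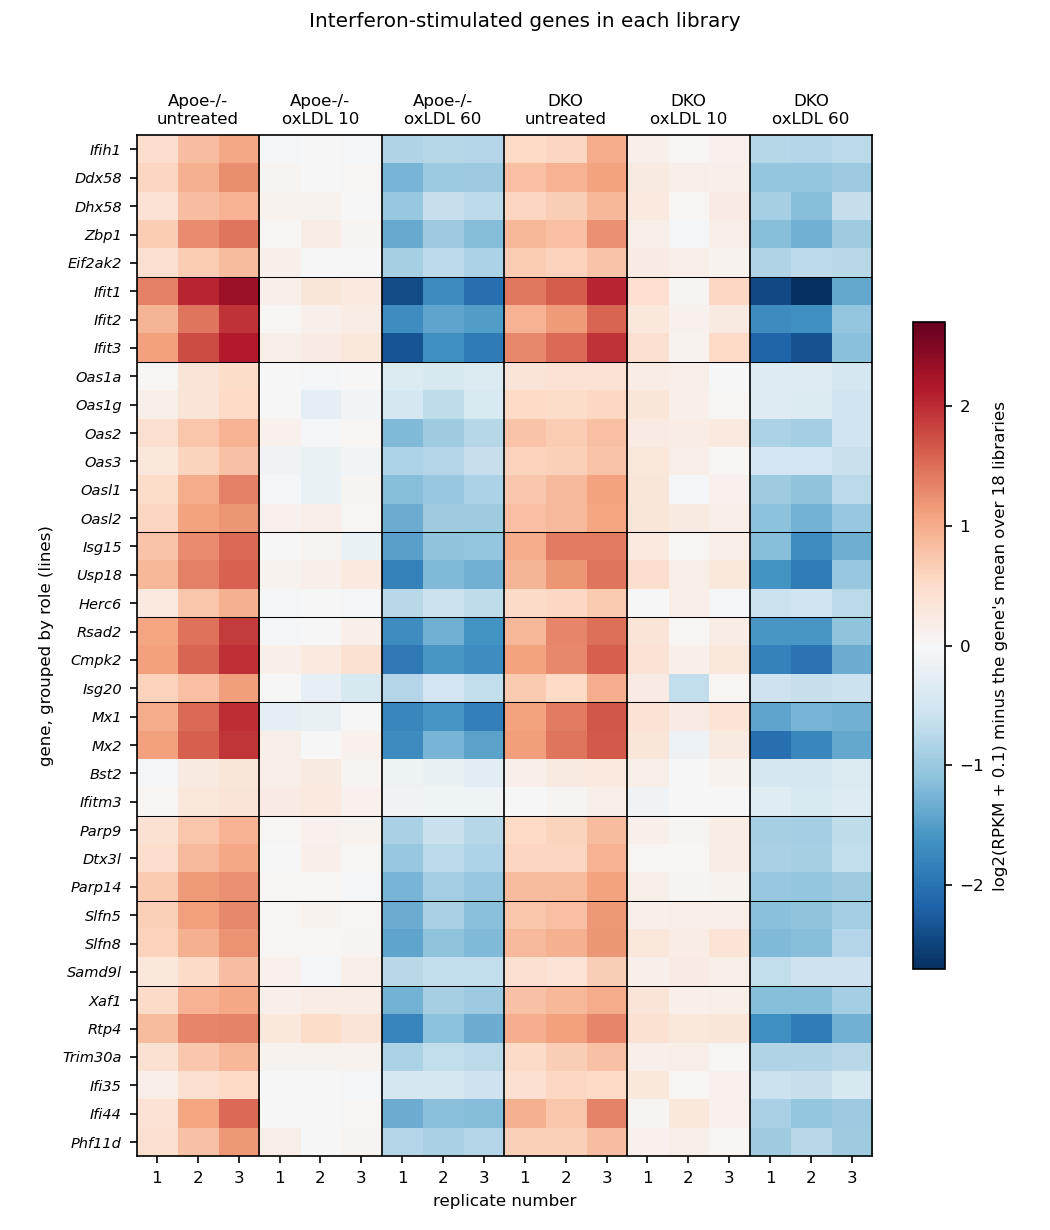
Each row is 1 of the 36 genes and each column 1 of the 18 libraries, grouped by genotype and oxLDL (µg/ml), with colour giving log2(RPKM + 0.1) minus the gene's mean over 18 libraries. In both genotypes the oxLDL 60 libraries are below the mean of each gene, and untreated libraries are above it except Bst2 in Apoe-/- replicate 1 and Ifitm3 in DKO replicate 1, with the deepest colours in Ifit1 and Ifit3 and the palest in Bst2 and Ifitm3.

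The first group detects foreign nucleic acid. Ifih1 (MDA5), Ddx58 (RIG-I) and Dhx58 (LGP2) are RNA helicases that sense viral RNA, Zbp1 senses Z-form nucleic acid, and Eif2ak2 (PKR) is a kinase that stops translation when it binds double-stranded RNA. Below, the 3 values of a group are those of replicates 1, 2 and 3. Eif2ak2, the most abundant of them, was 22.8, 27.2 and 30.6 RPKM untreated, 18.4, 17 and 17 RPKM at oxLDL 10 and 9.05, 10.3 and 9.28 RPKM at oxLDL 60 in Apoe-/- cells. DKO cells gave Eif2ak2 values of 27.2, 26.1 and 28.8 RPKM untreated, 19.6, 19.1 and 17.9 RPKM at oxLDL 10 and 9.54, 10.3 and 9.91 RPKM at oxLDL 60. The 3 doses did not overlap in either genotype, and the log2 fold change at oxLDL 60 was -1.47 ± 0.0859 SE (adjusted p by limma = 1.89e-09) in Apoe-/- cells and -1.46 ± 0.0859 SE (adjusted p by limma = 3.15e-09) in DKO cells. Zbp1 changed most in this group. It was 12.9, 19.7 and 22.1 RPKM untreated, 8.22, 9.21 and 8.42 RPKM at oxLDL 10 and 3.05, 4.03 and 3.52 RPKM at oxLDL 60 in Apoe-/- cells. In DKO cells Zbp1 was 15, 14.1 and 19 RPKM untreated, 9, 7.88 and 9.1 RPKM at oxLDL 10 and 3.57, 3.2 and 4.1 RPKM at oxLDL 60. The doses were again separate, and the log2 fold change at oxLDL 60 was -2.31 ± 0.163 SE (adjusted p by limma = 1.34e-08) and -2.11 ± 0.163 SE (adjusted p by limma = 4.47e-08). Ddx58 fell 4.04-fold and 3.92-fold, Ifih1 2.98-fold and 2.75-fold, and Dhx58 2.82-fold and 3.05-fold in Apoe-/- and DKO cells. All 5 were called lower in both genotypes.

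The IFIT genes included the 2 largest falls. Of their proteins, IFIT1 binds foreign RNA lacking the host's cap methylation and holds it from translation. Ifit1 in Apoe-/- cells was 33.9, 55.2 and 65.2 RPKM untreated, 14.4, 16.5 and 15.8 RPKM at oxLDL 10 and 2.38, 3.95 and 3.15 RPKM at oxLDL 60. In DKO cells Ifit1 was 35.5, 41.2 and 55 RPKM untreated, 18, 13.9 and 19.5 RPKM at oxLDL 10 and 2.36, 1.93 and 4.95 RPKM at oxLDL 60. Its lowest untreated library stood well over every treated one, and the log2 fold change at oxLDL 60 was -3.96 ± 0.29 SE (adjusted p by limma = 2.06e-08) in Apoe-/- cells and -3.88 ± 0.29 SE (adjusted p by limma = 3.2e-08) in DKO cells, or 15.6-fold and 14.8-fold, the largest of the 36 in both genotypes. Ifit3 in Apoe-/- cells was 52.1, 81.1 and 106 RPKM untreated, 26.8, 28.2 and 29.8 RPKM at oxLDL 10 and 4.66, 7.53 and 6.29 RPKM at oxLDL 60. Ifit3 in DKO cells was 58.8, 69.2 and 93.4 RPKM untreated, 32.5, 25.5 and 34.9 RPKM at oxLDL 10 and 5.28, 4.61 and 11 RPKM at oxLDL 60. The log2 fold changes at oxLDL 60 were -3.64 ± 0.287 SE (adjusted p by limma = 4.91e-08) and -3.47 ± 0.287 SE (adjusted p by limma = 9.98e-08), and Ifit2 fell 7.86-fold and 6.47-fold. At oxLDL 60 Ifit1 had the widest spread between libraries of any member in both genotypes, with a ratio of the highest to the lowest of 1.66 in Apoe-/- and 2.56 in DKO cells, and DKO replicate 3 was the highest DKO library for all 3 Ifit genes. The neighbouring copy Ifit3b, no member and partly sharing the reads of Ifit3, changed by -3.89 and -3.65 on the log2 scale (limma adjusted p = 4.43e-09 and 1.13e-08).

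The OAS family includes enzymes that make 2′-5′ oligoadenylate from ATP once double-stranded RNA activates them, and Oasl1 and Oasl2 are OAS-like members of it. The size of the change varied within this group. Oas1a, the most abundant, was 70.7, 88 and 97.6 RPKM untreated, 69.8, 67.4 and 69.8 RPKM at oxLDL 10 and 54.1, 51.2 and 53.9 RPKM at oxLDL 60 in Apoe-/- cells. Values of Oas1a in DKO cells were 87.8, 91.5 and 91.7 RPKM untreated, 79.9, 78.1 and 68.6 RPKM at oxLDL 10 and 54.5, 54.7 and 49.98 RPKM at oxLDL 60. The doses did not overlap, yet the change was small, a log2 fold change of -0.67 ± 0.0886 SE (adjusted p by limma = 1.78e-05) in Apoe-/- cells and -0.77 ± 0.0886 SE (adjusted p by limma = 4.88e-06) in DKO cells. Oasl2 showed the largest change of the group. It was 31.4, 44.8 and 48.2 RPKM untreated, 22.8, 24 and 21.5 RPKM at oxLDL 10 and 8.32, 10.8 and 10.8 RPKM at oxLDL 60 in Apoe-/- cells, with a log2 fold change at oxLDL 60 of -2.03 ± 0.133 SE (adjusted p by limma = 5.66e-09). DKO cells had Oasl2 at 37.4, 38.5 and 44 RPKM untreated, 26.4, 24.9 and 23.8 RPKM at oxLDL 10 and 9.74, 8.67 and 10.3 RPKM at oxLDL 60, with -2.05 ± 0.133 SE (adjusted p by limma = 7.57e-09). The log2 fold changes of the rest were -0.88 and -0.95 for Oas1g, -1.31 and -1.22 for Oas3, -1.68 and -1.52 for Oas2, and -1.96 and -1.83 for Oasl1, in Apoe-/- and DKO cells, and all 6 were called lower in both.

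**Figure D2:**
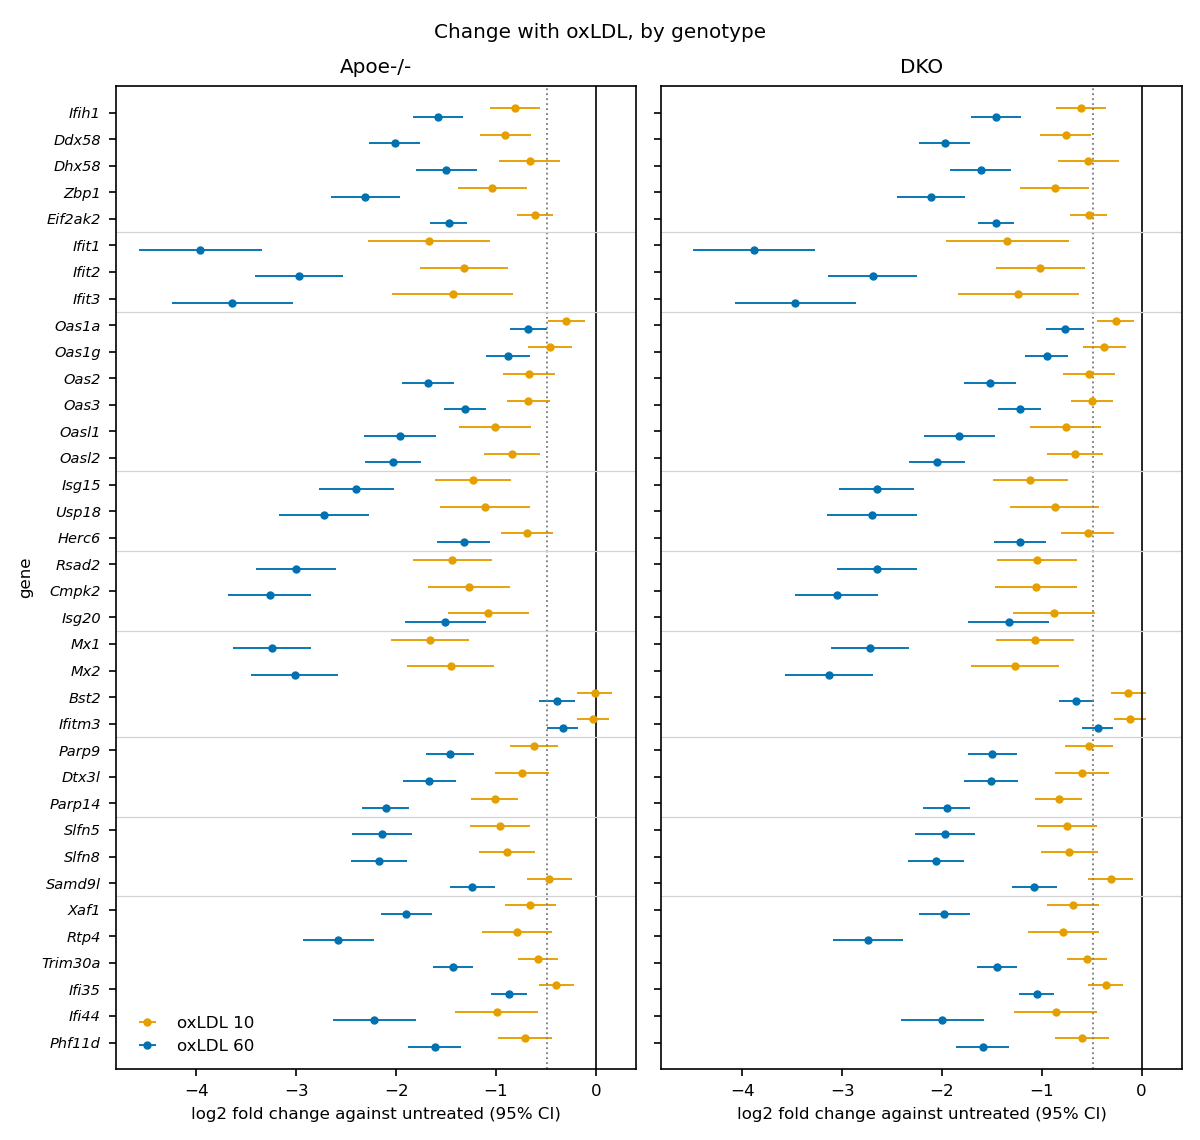
Log2 fold changes (x axis) of the 36 genes (y axis, grouped by role) at oxLDL 10 and oxLDL 60 against untreated cells, for Apoe-/- on the left and DKO on the right, with 95% confidence intervals from the limma fit and a dotted line at the 1.4-fold limit. The oxLDL 60 points run from -3.96 (Ifit1) to -0.33 (Ifitm3) in Apoe-/- cells and lie further left than the oxLDL 10 points for each gene.

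ISG15 is a ubiquitin-like protein that is attached to other proteins, a step carried out by HERC6 in mouse and undone by the protease USP18, which also dampens the interferon receptor. Isg15 in Apoe-/- cells was 32.2, 46.2 and 55.1 RPKM untreated, 19.1, 19.8 and 16.6 RPKM at oxLDL 10 and 6.74, 8.89 and 9.03 RPKM at oxLDL 60. DKO libraries gave Isg15 at 38, 50.1 and 50.5 RPKM untreated, 22.7, 19.3 and 21.4 RPKM at oxLDL 10 and 8.52, 5.81 and 7.53 RPKM at oxLDL 60. Every step of dose was separate, and the log2 fold change at oxLDL 60 was -2.40 ± 0.178 SE (adjusted p by limma = 2.5e-08) in Apoe-/- cells and -2.65 ± 0.178 SE (adjusted p by limma = 1.05e-08) in DKO cells. Usp18 in Apoe-/- cells was 34, 47.2 and 55.1 RPKM untreated, 19.7, 20.2 and 22 RPKM at oxLDL 10 and 5.05, 7.98 and 7.36 RPKM at oxLDL 60. Usp18 in DKO cells was 34.8, 42 and 49.95 RPKM untreated, 25.6, 20.5 and 22.5 RPKM at oxLDL 10 and 5.94, 4.86 and 8.9 RPKM at oxLDL 60. Here too no dose overlapped the next, with log2 fold changes at oxLDL 60 of -2.72 ± 0.212 SE (adjusted p by limma = 4.4e-08) and -2.70 ± 0.212 SE (adjusted p by limma = 5.69e-08). Herc6 changed less, 2.5-fold and 2.32-fold lower, and was called lower in both genotypes.

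Viperin (Rsad2) and CMPK2 are neighbouring genes whose products act together to make a chain-terminating nucleotide, and ISG20 is an exonuclease that degrades RNA. Rsad2 in Apoe-/- cells was 29.2, 38.3 and 51.9 RPKM untreated, 13.6, 13.9 and 15.2 RPKM at oxLDL 10 and 4.28, 5.57 and 4.46 RPKM at oxLDL 60. In DKO cells Rsad2 stood at 25.9, 34.8 and 39 RPKM untreated, 17.7, 14.1 and 15.9 RPKM at oxLDL 10 and 4.56, 4.57 and 6.47 RPKM at oxLDL 60. There was no overlap between doses, and the log2 fold change at oxLDL 60 was -3.00 ± 0.188 SE (adjusted p by limma = 3.97e-09) in Apoe-/- and -2.65 ± 0.188 SE (adjusted p by limma = 1.73e-08) in DKO cells. Cmpk2 was 21.1, 29.2 and 38.8 RPKM untreated, 10.9, 11.8 and 13.1 RPKM at oxLDL 10 and 2.5, 3.25 and 3.01 RPKM at oxLDL 60 in Apoe-/- cells and its log2 fold change at oxLDL 60 was -3.27 ± 0.195 SE (adjusted p by limma = 2.15e-09). In DKO cells Cmpk2 was 21, 24.4 and 30.3 RPKM untreated, 12.8, 10.8 and 12.2 RPKM at oxLDL 10 and 2.68, 2.4 and 3.82 RPKM at oxLDL 60, with -3.06 ± 0.195 SE (adjusted p by limma = 6.46e-09). Isg20, the rarest member, differed in shape and was picked out after its values were seen. It was 2.38, 2.72 and 3.41 RPKM untreated, 1.49, 1.29 and 1.09 RPKM at oxLDL 10 and 0.832, 1.03 and 0.921 RPKM at oxLDL 60 in Apoe-/- cells. In DKO cells Isg20 was 2.55, 2.26 and 3.07 RPKM untreated, 1.79, 0.911 and 1.57 RPKM at oxLDL 10 and 0.99, 0.952 and 0.98 RPKM at oxLDL 60. Its oxLDL 10 libraries reached down to the oxLDL 60 level, where DKO oxLDL 10 replicate 2 lay below all 3 DKO oxLDL 60 libraries. Isg20 was called lower at both doses against untreated cells, but the step from oxLDL 10 to oxLDL 60 did not pass, with log2 fold changes of -0.43 ± 0.193 SE (adjusted p by limma = 0.168) in Apoe-/- cells and -0.45 ± 0.193 SE (adjusted p by limma = 0.128) in DKO cells.

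**Figure D3:**
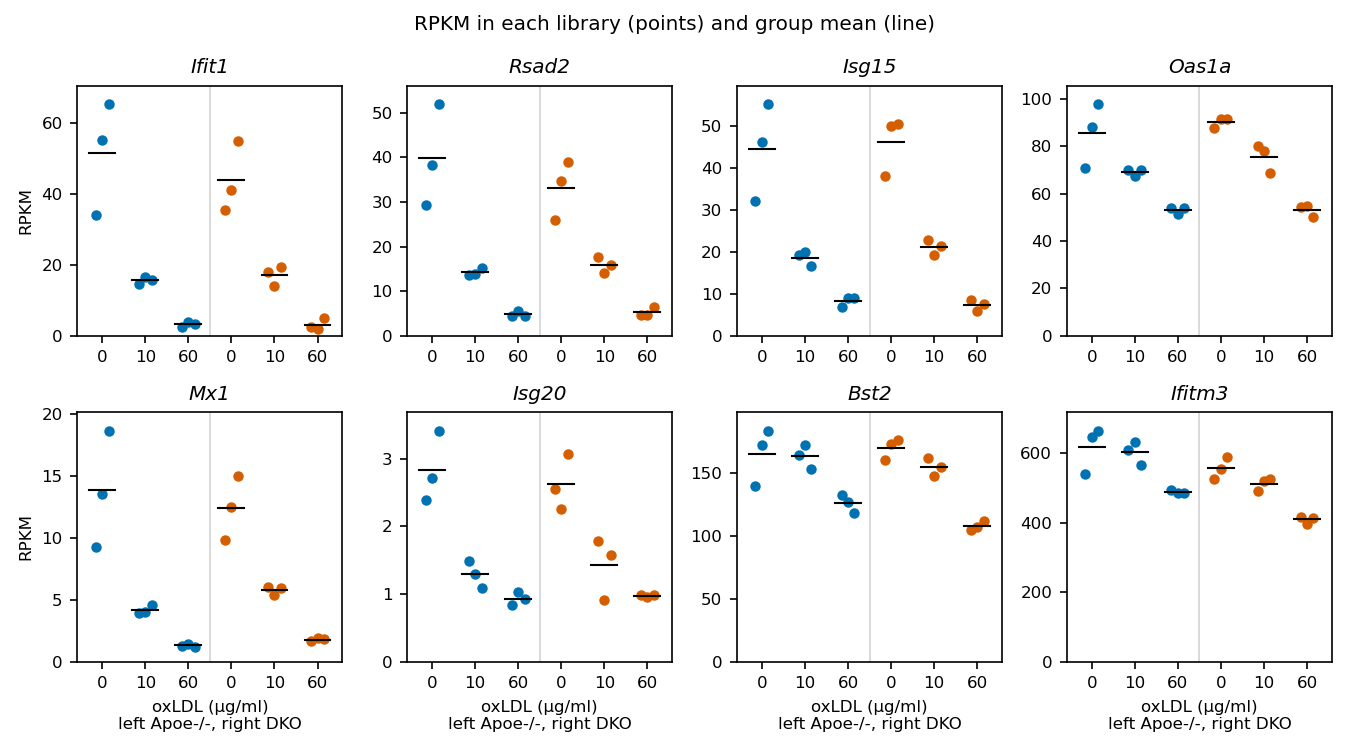
RPKM (y axis, from 0) of 8 of the genes against oxLDL in µg/ml, with blue points for the 3 Apoe-/- libraries of each dose, orange points for the 3 DKO libraries and black lines for group means. Ifit1, Rsad2, Isg15 and Mx1 drop at each dose, Isg20 drops mostly by oxLDL 10, and Bst2 and Ifitm3 stay within overlapping ranges until oxLDL 60.

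The Mx genes and the membrane restriction factors split apart. Mx1 and Mx2 are genes of a family of dynamin-like GTPases, Bst2 (tetherin) holds budding virions on the cell surface, and Ifitm3 blocks virus fusion in endosomes. Mx1 in Apoe-/- cells was 9.3, 13.6 and 18.7 RPKM untreated, 3.9, 3.99 and 4.61 RPKM at oxLDL 10 and 1.28, 1.47 and 1.21 RPKM at oxLDL 60. Mx1 in DKO cells was 9.87, 12.5 and 15 RPKM untreated, 6.07, 5.38 and 5.98 RPKM at oxLDL 10 and 1.66, 1.88 and 1.83 RPKM at oxLDL 60. Its log2 fold change at oxLDL 60 was -3.24 ± 0.185 SE (adjusted p by limma = 1.5e-09) in Apoe-/- and -2.72 ± 0.185 SE (adjusted p by limma = 1.24e-08) in DKO cells, and Mx2 fell 8.1-fold and 8.76-fold. Bst2 and Ifitm3, the members with the highest levels, changed least. Ifitm3 in Apoe-/- cells was 542, 646 and 666 RPKM untreated, 611, 632 and 567 RPKM at oxLDL 10 and 496, 486 and 485 RPKM at oxLDL 60. In DKO cells Ifitm3 gave 526, 556 and 590.5 RPKM untreated, 491, 522 and 527 RPKM at oxLDL 10 and 418, 398 and 414 RPKM at oxLDL 60. The oxLDL 60 libraries were lower than all untreated ones, but the log2 fold change of -0.33 ± 0.0752 SE (adjusted p by limma = 0.00269) in Apoe-/- cells and -0.44 ± 0.0752 SE (adjusted p by limma = 0.000277) in DKO cells was under the 1.4-fold limit, so Ifitm3 was not called in either genotype. Bst2 in Apoe-/- cells was 140.1, 173 and 184 RPKM untreated, 165, 173 and 153 RPKM at oxLDL 10 and 133, 127 and 118 RPKM at oxLDL 60. For DKO cells Bst2 read 161, 174 and 176 RPKM untreated, 163, 148 and 155 RPKM at oxLDL 10 and 105, 107 and 112 RPKM at oxLDL 60. It was called lower in DKO cells, with a log2 fold change of -0.65 ± 0.0842 SE (adjusted p by limma = 1.63e-05), and in Apoe-/- cells it passed the adjusted p but not the fold limit (-0.39 ± 0.0842 SE, adjusted p by limma = 0.00204). Without Apoe-/- untreated replicate 1, its lowest untreated library, Bst2 was called in Apoe-/- cells as well (log2 fold change -0.50, limma adjusted p = 4.19e-05). The fall of Bst2 was not shown to differ between genotypes, since the interaction was -0.27 with a limma adjusted p of 0.507.

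PARP9 and its partner DTX3L form a complex that modifies histones and host and viral proteins, and PARP14 is a mono-ADP-ribosyltransferase. Parp14 in Apoe-/- cells was 45.3, 61.2 and 65.5 RPKM untreated, 28.5, 28.7 and 27 RPKM at oxLDL 10 and 11.5, 14.5 and 13.6 RPKM at oxLDL 60. Parp14 in DKO cells measured 50.04, 50.5 and 59.4 RPKM untreated, 30.8, 29 and 29.7 RPKM at oxLDL 10 and 13.6, 13.3 and 14.1 RPKM at oxLDL 60. It had the smallest p of the members in both oxLDL 60 comparisons, with a log2 fold change of -2.10 ± 0.111 SE (adjusted p by limma = 6.62e-10) in Apoe-/- and -1.95 ± 0.111 SE (adjusted p by limma = 2.03e-09) in DKO cells. Parp9 and Dtx3l, which are adjacent genes, changed by -1.46 and -1.67 on the log2 scale in Apoe-/- cells and by -1.49 and -1.51 in DKO cells.

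Schlafen proteins and SAMD9L restrict viral translation. Slfn8 in Apoe-/- cells was 22.6, 28.4 and 34.1 RPKM untreated, 15, 14.9 and 15.4 RPKM at oxLDL 10 and 5.39, 6.8 and 6.33 RPKM at oxLDL 60. Slfn8 in DKO cells was 26.8, 28.7 and 33.5 RPKM untreated, 18, 16.9 and 18.8 RPKM at oxLDL 10 and 6.33, 6.49 and 8.42 RPKM at oxLDL 60. All libraries of a dose lay apart from those of the next, with log2 fold changes at oxLDL 60 of -2.17 ± 0.134 SE (adjusted p by limma = 3.18e-09) and -2.06 ± 0.134 SE (adjusted p by limma = 7.78e-09). Samd9l, the most abundant of the 3, was 34.1, 40.5 and 50.2 RPKM untreated, 30.5, 27.2 and 31.5 RPKM at oxLDL 10 and 16.6, 17.8 and 17.8 RPKM at oxLDL 60 in Apoe-/- cells, with a log2 fold change at oxLDL 60 of -1.24 ± 0.107 SE (adjusted p by limma = 1.52e-07). In DKO cells Samd9l was 38, 36.1 and 44.4 RPKM untreated, 30.8, 33 and 31.4 RPKM at oxLDL 10 and 17.8, 19.1 and 18.9 RPKM at oxLDL 60, with -1.08 ± 0.107 SE (adjusted p by limma = 8.37e-07). Most of the fall of Samd9l came above oxLDL 10, where its libraries were still near the lowest untreated one. Slfn5 fell 4.41-fold and 3.91-fold.

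Of the remaining members, Rtp4 is a chaperone of receptors that also restricts viruses, Trim30a a member of the tripartite motif family, Xaf1 a pro-apoptotic protein, and Ifi35, Ifi44 and Phf11d are interferon-induced genes. Rtp4 had both the highest level and the largest change among them. It was 60.2, 83.1 and 83.8 RPKM untreated, 40.7, 46.6 and 42.5 RPKM at oxLDL 10 and 9.57, 15.4 and 13.1 RPKM at oxLDL 60 in Apoe-/- cells, with a log2 fold change at oxLDL 60 of -2.58 ± 0.167 SE (adjusted p by limma = 5.39e-09). In DKO cells Rtp4 was 65.3, 71.6 and 83 RPKM untreated, 44.1, 40.9 and 42 RPKM at oxLDL 10 and 10.5, 8.9 and 13.5 RPKM at oxLDL 60, with -2.74 ± 0.167 SE (adjusted p by limma = 3.9e-09). Ifi44 fell 4.65-fold and 3.99-fold, Xaf1 3.72-fold and 3.94-fold, Phf11d 3.06-fold and 3.01-fold, Trim30a 2.69-fold and 2.72-fold, and Ifi35 1.83-fold and 2.07-fold, in Apoe-/- and DKO cells. All 6 were called lower in both.

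Most members were already lower at the lower dose. At oxLDL 10, 30 of 36 were called lower and none higher in Apoe-/- cells, against 2.04% of all genes called lower, and 30 of 36 in DKO cells, against 1.69%. The median log2 fold change was -0.83 in Apoe-/- and -0.71 in DKO cells (0.067 and 0.021 over all genes). For 34 members all treated libraries lay below all untreated ones in each genotype, with 6.16% of all genes so arranged in Apoe-/- and 8.90% in DKO cells. Macrophage marker sums at oxLDL 10, 8586 to 11964 RPKM in Apoe-/- and 7340 to 10104 RPKM in DKO cells, overlapped the untreated ones, and of the 8 markers Cd14 was called lower in both genotypes and Mertk higher in DKO cells. The 6 not called, Oas1a, Oas1g, Bst2, Ifitm3, Samd9l and Ifi35, were the same in both genotypes, and each also had one of the smaller changes at oxLDL 60. The smallest p in Apoe-/- cells were those of Parp14, Mx1 and Rsad2, with log2 fold changes of -1.01 ± 0.111 SE (adjusted p by limma = 5.81e-05), -1.66 ± 0.185 SE (adjusted p by limma = 7.06e-05) and -1.44 ± 0.188 SE (adjusted p by limma = 0.000286). In DKO cells they were those of Parp14 at -0.83 ± 0.111 SE (adjusted p by limma = 0.000336), Isg15 at -1.12 ± 0.178 SE (adjusted p by limma = 0.00165) and Ddx58 at -0.76 ± 0.122 SE (adjusted p by limma = 0.00165). Bst2 changed by -0.011 (95% CI -0.19 to 0.17) in Apoe-/- and -0.13 (95% CI -0.31 to 0.045) in DKO cells, and its untreated and oxLDL 10 libraries overlapped in both.

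The DKO count at oxLDL 10 rested on few libraries. It was 13 without DKO untreated replicate 3, 19 without DKO oxLDL 10 replicate 2 and 16 without the Xist-positive libraries of both genotypes. The median log2 fold change in that comparison stayed between -0.77 and -0.62 over all alternatives run.

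From oxLDL 10 to oxLDL 60 the members dropped again. In Apoe-/- cells 30 of 36 were called lower, against 3.54% of all genes, and in DKO cells 34 of 36, against 3.74%, with none higher in either. The median log2 fold change was -1.05 and -1.10. Rtp4 had the smallest p in both, with -1.79 ± 0.167 SE (adjusted p by limma = 2.06e-06) in Apoe-/- and -1.96 ± 0.167 SE (adjusted p by limma = 1.77e-06) in DKO cells. In Apoe-/- cells Cmpk2 came next, 3.99-fold lower (limma adjusted p = 3.32e-06), and then Xaf1 at -1.24 ± 0.122 SE (adjusted p by limma = 3.45e-06). In DKO cells Eif2ak2 came next at -0.92 ± 0.0859 SE (adjusted p by limma = 3.02e-06) and then Xaf1 at -1.29 ± 0.122 SE (adjusted p by limma = 3.48e-06). The libraries of untreated cells all lay above those of oxLDL 10, and these above those of oxLDL 60, for 34 members in Apoe-/- cells, Bst2 and Ifitm3 being the others, and for 33 in DKO cells, where Isg20 was also an exception. Of all genes tested, 3.36% were so ordered in Apoe-/- and 5.16% in DKO cells. Level and size of fall were also set side by side. Across the 36 members, which share the same libraries, Pearson's r between the mean log2 level of untreated Apoe-/- cells and the log2 fold change at oxLDL 60 was 0.20 and Spearman's rho 0.091, given as a description only.

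Untreated animals differed from each other in the whole set at once. Apoe-/- untreated replicate 1 was the lowest library of its group for 36 of 36 members and replicate 3 the highest for 36 of 36. How many of all genes were so ranked was not counted, here or for the other rank counts below. The mean log2(RPKM + 0.1) over the members was 4.56, 4.97 and 5.20 in replicates 1, 2 and 3. The median ratio of the highest to the lowest library of that group was 1.50 over the members and 1.18 over all 10102 genes with a mean of at least 1 RPKM, and it reached 2.23 for Ifi44. Part of the difference lay in the libraries as a whole, with median ratio factors over all genes of 0.895, 0.963 and 1.02 in replicates 1, 2 and 3. Scaling libraries by their median ratio moved the 3 means to 4.71, 5.02 and 5.17. After it replicate 1 was still lowest for 36 members and replicate 3 highest for 34. In untreated DKO cells replicate 3, an Xist-positive animal, was highest for 35 members, replicate 1 was lowest for 29, and the means were 4.73, 4.82 and 5.05.

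The Apoe-/- spread was narrower in the treated groups. In the Apoe-/- libraries the means at oxLDL 10 were 4.04, 4.04 and 4.05, with replicate 1 lowest for 15 members, replicate 2 for 11 and replicate 3 for 10. At oxLDL 60 they were 2.80, 3.06 and 2.99, and replicate 1 was again lowest for 29 members. DKO means were 4.22, 4.08 and 4.16 at oxLDL 10 and 2.91, 2.86 and 3.12 at oxLDL 60, where replicate 3 was highest for 24 members. Median ratio scaling moved the Apoe-/- means at oxLDL 10 to 3.98, 4.08 and 4.06. The members were also compared within each animal. At oxLDL 60 all 36 members were below the same animal's untreated value in 6 of 6 animals, with mean log2 differences of -1.75, -1.91 and -2.22 in Apoe-/- replicates 1, 2 and 3 and -1.81, -1.96 and -1.93 in DKO replicates 1, 2 and 3. Of all genes tested, 22.8% lay below their own untreated value in all 3 Apoe-/- animals and 41.8% in all 3 DKO animals at that dose, and 29.7 to 62.6% in single animals. At oxLDL 10 this held for 36 members in 4 animals, for 34 in Apoe-/- replicate 1, where Bst2 and Ifitm3 were higher, and for 35 in DKO replicate 1, where Bst2 was higher. The shares of all genes at oxLDL 10 were 10.5% and 18.6% for all 3 animals and 16.3 to 59.6% for single animals. The mean differences at that dose ranged from -0.51 in DKO replicate 1 to -1.16 in Apoe-/- replicate 3.

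**Figure D4:**
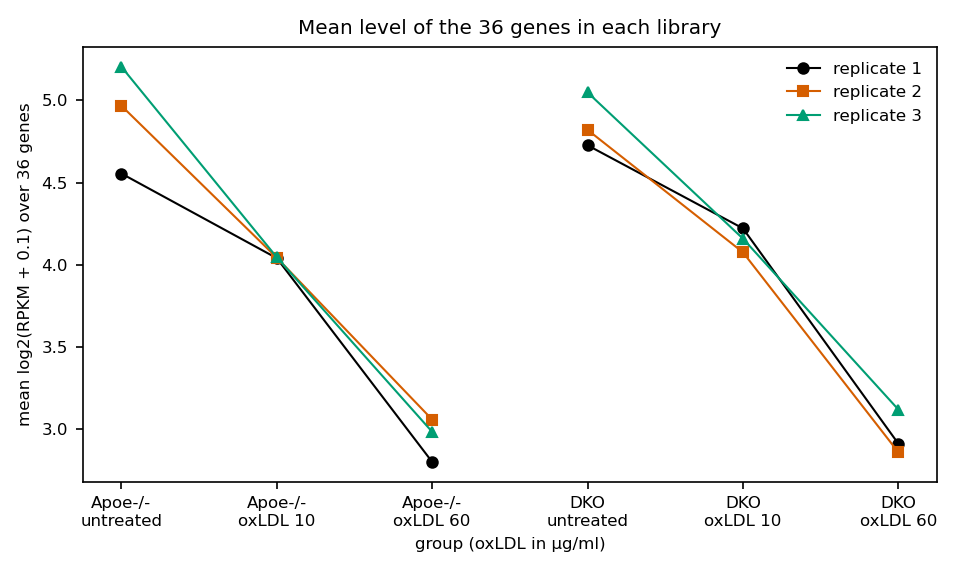
Mean log2(RPKM + 0.1) over the 36 genes (y axis) in each library, by genotype and oxLDL in µg/ml (x axis), with lines joining the libraries of 1 animal. The Apoe-/- lines start apart, at 4.56 to 5.20, meet at 4.04 to 4.05 at oxLDL 10 and end at 2.80 to 3.06, while the DKO lines run from 4.73 to 5.05 down to 2.86 to 3.12. Values are shown without median ratio scaling.

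No member differed past the threshold between cells with and without Treml4. Between genotypes, DKO against Apoe-/-, limma called 0 of 36 in untreated cells (0.21% of all genes called), 0 of 36 at oxLDL 10 (0.0857%) and 0 of 36 at oxLDL 60 (0.125%). At an unadjusted p under 0.05 the counts were 0, 4 and 3 of 36 members, against 2225, 1252 and 1011 of all 12838 genes. The tool limma was the sole one run. The median log2 fold changes were -0.058, 0.11 and 0.042. The 95% confidence interval of the difference lay within 1.4-fold in either direction for 26 members untreated, 24 at oxLDL 10 and 26 at oxLDL 60. Each interval used 1 estimate of a gene's spread over all 6 groups, though the groups differed in spread. The SD of the mean log2 level over the members was 0.328 in untreated Apoe-/- cells and 0.0027 in Apoe-/- cells at oxLDL 10. The second SD depends on library scaling, since median ratio scaling moved the 3 means at oxLDL 10 to 3.98, 4.08 and 4.06. For single members the median ratio of the highest to the lowest library was 1.50 in untreated Apoe-/- cells and 1.11 at oxLDL 10. The untreated intervals may thus be too narrow, and their count rests on that shared estimate. The widest intervals were those of Ifit1, -0.81 to 0.41 untreated and -0.74 to 0.49 at oxLDL 60, so differences within these limits were not excluded for it.

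The members nearest to a difference went in opposite directions. Mx1 in DKO against Apoe-/- cells stood at oxLDL 10 at 6.07, 5.38 and 5.98 RPKM against 3.9, 3.99 and 4.61 RPKM, and at oxLDL 60, at 1.66, 1.88 and 1.83 RPKM against 1.28, 1.47 and 1.21 RPKM. The groups did not overlap at either dose, but the log2 fold changes of 0.47 ± 0.185 SE (adjusted p by limma = 0.485) and 0.41 ± 0.185 SE (adjusted p by limma = 0.621) did not pass. Oas3 at oxLDL 10 was 25.6, 23.3 and 21.4 RPKM in DKO against 19.3, 18.3 and 19.4 RPKM in Apoe-/- cells, with 0.30 ± 0.1 SE (adjusted p by limma = 0.419). Oas1g followed at 0.26 ± 0.103 SE (adjusted p by limma = 0.485). Ifitm3 gave negative values for DKO against Apoe-/- cells, with log2 fold changes of -0.14 ± 0.0752 SE (adjusted p by limma = 0.332) untreated, -0.23 ± 0.0752 SE (adjusted p by limma = 0.394) at oxLDL 10 and -0.25 ± 0.0752 SE (adjusted p by limma = 0.374) at oxLDL 60, and the groups were apart at both doses of oxLDL. Bst2 was -0.22 ± 0.0842 SE (adjusted p by limma = 0.559) at oxLDL 60 and Mx2 -0.25 ± 0.207 SE (adjusted p by limma = 0.774). In untreated cells the smallest p besides that of Ifitm3 were those of Oas1g (0.18), Ifi35 (0.12), Oas3 (0.12), Rsad2 (-0.24) and Ifit2 (-0.22), with limma adjusted p of 0.37 to 0.597. At oxLDL 60 Oas3 (0.21) and Oas2 (0.20) did not pass either. At oxLDL 10 the only members with negative values besides Ifitm3 were Bst2 (-0.075) and Rtp4 (-0.031), both close to 0. Counted over members, 11 had every DKO library above every Apoe-/- library at oxLDL 10 and 1 below, with 8.98% and 3.12% of all genes so arranged, and at oxLDL 60 the counts were 4 above and 2 below, with 4.49% and 12.0% of all genes. In untreated cells no member was so arranged in either direction, against 18.3% of all genes above and 1.23% below.

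The response to oxLDL was not shown to differ by genotype for any member. The interaction of genotype and oxLDL was called for 0 of 36 members at oxLDL 60 (0.0156% of all genes) and 0 of 36 at oxLDL 10 (0% of all genes). At an unadjusted p under 0.05 there was 1 member of 36 in each, Bst2 at oxLDL 60 and Mx1 at oxLDL 10. Over all 12838 genes, 1256 and 246 were under that limit. The median interaction was 0.083 at oxLDL 60 and 0.15 at oxLDL 10 on the log2 scale, and that of all genes -0.11 and -0.034. Mx1 gave 0.53 at oxLDL 60 (limma adjusted p = 0.514) and 0.59 at oxLDL 10 (limma adjusted p = 1). At oxLDL 60 the next smallest p were those of Ifi35 (-0.18), Rsad2 (0.35), Samd9l (0.16) and Ifitm3 (-0.11), and at oxLDL 10 those of Rsad2 (0.39) and Oas3 (0.18), on the log2 scale and none past the threshold. The only negative interactions at oxLDL 10 were those of Bst2 (-0.12), Ifitm3 (-0.088) and Xaf1 (-0.034). The interval of the interaction lay within the 1.4-fold limit for 16 members at oxLDL 60 and 11 at oxLDL 10. It used the same shared estimate of spread.

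**Figure D5:**
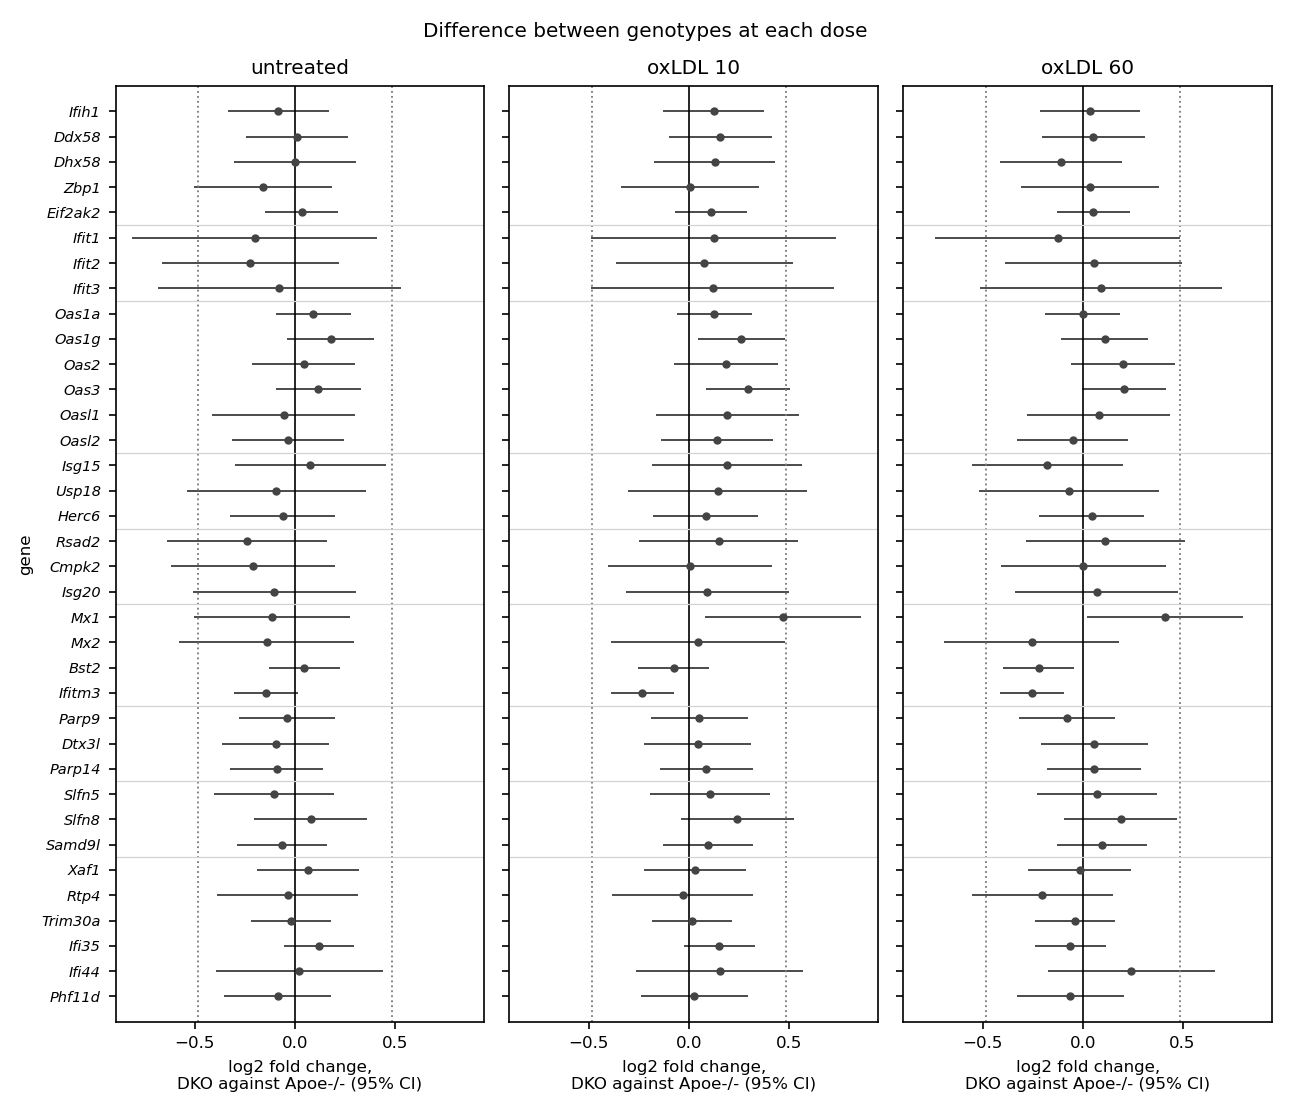
Log2 fold changes of DKO against Apoe-/- cells (x axis, 95% confidence intervals from the limma fit) for the 36 genes (y axis) in untreated, oxLDL 10 and oxLDL 60 cells, with dotted lines at 1.4-fold. Medians are -0.058, 0.11 and 0.042, and most intervals include 0, those of Mx1 and Ifitm3 at both doses of oxLDL being among the exceptions.

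The rest of the pathway was followed from its ligands to its targets, using lists of genes that hold no member. Of 21 interferon genes listed, 6 had a row, and all 6 were under 0.1 RPKM in every library. Ifnb1, the interferon first made by macrophages, averaged 0.030 RPKM in untreated Apoe-/- cells and was listed at 0 in the DKO libraries with oxLDL. Among 10 genes of receptors, kinases and ISGF3, 7 were called lower and none higher at oxLDL 60 in each genotype. For this list and those that follow, the share of all genes called lower was 6.78% in Apoe-/- and 7.31% in DKO cells. Stat2 was 20.6 ± 4.64 RPKM untreated and 6.69 ± 0.908 RPKM at oxLDL 60 in Apoe-/- cells (SD, n = 3), which the fit gave as a log2 change of -1.59 ± 0.129 SE (adjusted p by limma = 7.35e-08). Jak2, which serves the interferon gamma receptor, changed by -1.16 ± 0.0808 SE (adjusted p by limma = 1.19e-08). Ifnar2 was level by comparison, at 32.6 ± 3.78 and 30.03 ± 1.55 RPKM, a log2 difference of -0.11 with a 95% CI of -0.27 to 0.05.

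IRF factors switch on interferon and its targets. Of 7 listed, 4 were called lower and none higher at oxLDL 60 in each genotype. Irf7, itself interferon-induced, fell from 53.8 ± 14.5 to 18.8 ± 0.811 RPKM in Apoe-/- cells (log2 fold change -1.48 ± 0.138 SE, adjusted p by limma = 3.83e-07), Irf1 changed by -1.87 ± 0.215 SE (adjusted p by limma = 4.11e-06) and Irf5 by -0.66 ± 0.0876 SE (adjusted p by limma = 1.98e-05). Irf3, which cells hold before any signal, was 16.3 ± 1.86 and 15.7 ± 0.629 RPKM (log2 difference -0.049, 95% CI -0.20 to 0.10). Of 15 sensors and adaptors upstream of interferon, 6 were called lower in Apoe-/- and 5 in DKO cells and none higher, led by the kinase Ikbke (-1.39 ± 0.142 SE, adjusted p by limma = 1.04e-06), the endosomal RNA receptor Tlr3 (-1.04 ± 0.126 SE, adjusted p by limma = 6.79e-06) and the adaptor Myd88 (-0.62 ± 0.0898 SE, adjusted p by limma = 4.83e-05). Of 7 negative regulators, 5 and 4 were called lower and none higher. Socs3, which curbs cytokine receptors, changed by -3.82 ± 0.199 SE (adjusted p by limma = 6.62e-10), the exonuclease Trex1 by -2.39 ± 0.156 SE (adjusted p by limma = 5.88e-09) and the phosphatase Ptpn6 by -0.98 ± 0.0862 SE (adjusted p by limma = 1.86e-07).

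Relatives of the members moved alike in part. Of 32 paralogues listed 26 were tested, and 18 were called lower and none higher at oxLDL 60 in each genotype. Ifit3b, Trim30d and Ifit1bl1 changed by -3.89, -1.79 and -3.58 on the log2 scale in Apoe-/- cells, with limma adjusted p of 4.43e-09, 4.8e-09 and 4.97e-08. Of 39 other interferon-stimulated genes, all tested, 30 were called lower in Apoe-/- and 33 in DKO cells, with none higher. The largest change in either genotype was that of Cxcl10, a chemokine that draws T cells, from 94.4 ± 24.7 to 2.11 ± 0.32 RPKM in Apoe-/- cells (log2 fold change -5.39 ± 0.233 SE, adjusted p by limma = 9.64e-11). Ifi203 and Mndal, 2 of the p200 proteins that bind DNA, fell 5.44-fold and 3.99-fold (limma adjusted p = 2.51e-09 and 4.02e-09). Between genotypes no gene of these lists was called at any dose, nor for either interaction. Few of all genes were, 0.0857 to 0.21% between genotypes and 0 to 0.0156% for the interactions.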

How the data were processed

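RNA of 18 BMDM cultures, 3 biological replicates in each of 6 groups, was sequenced. The authors aligned the reads with STAR to mm10, per the submitters' processing notes, and deposited RPKM values for 18668 gene symbols. The study's methods name a workflow with RNA-SeQC and Subread among its tools, without saying which step gave these values, and the annotation is not given in the sources used here, and 24 symbols look like dates. Members and lists of related genes were chosen with earlier results of these data known, so no pattern over them is independent support.

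RPKM values were tested with limma 3.58.1 in R 4.3.3 as log2(RPKM + 0.1), keeping the 12838 genes that reached 0.1 RPKM in 3 libraries or more, with 1 mean per group over all 18 libraries, eBayes with a trend and Benjamini-Hochberg adjustment over all genes of a comparison. Calls needed an adjusted p under 0.05 and 1.4-fold. Fold changes on this scale understate the change of low genes. The p-values measure the spread between these samples. The fit was first run on simulated data with independent libraries and equal spread in all groups. That setting held neither the pairing nor the unequal spread of these data. Confidence intervals are 95%.

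Genes given with every library were the member with the highest mean and the one with the largest change in each role group at oxLDL 60, and those not called in both genotypes. In the other comparisons up to 3 members higher and 3 lower with the smallest p were named, and in each list of related genes the 3 with the smallest p at oxLDL 60 in Apoe-/- cells, except that some items are not reported here. Isg20, Ifnb1, Ifnar2, Irf3 were added after their values were seen.

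Replicate numbers paired libraries within a genotype. Over 18 pairs of libraries with the same number and genotype, deviations from group means correlated across genes at 0.18 to 0.69 (median 0.41). The median was -0.35 for other numbers of the same genotype. Deviations sum to 0 within a group, so positive values for the same number force negative ones for the others, and -0.35 is no separate evidence. Alternatives were the pseudocount, filters, median ratio scaling, Xist-positive libraries, the pairing, the fold limit, the eBayes trend, the groups fitted and leaving out each library. Promoter windows came from RefSeq (GRCm38.p6) and shared words from GENCODE M21.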

Additional observations from a re-analysis of the deposited data

How the results depend on the processing

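The count of members called at oxLDL 10 in DKO cells was 30 and moved most. It was 16 with the Xist-positive libraries left out, and from 13 (without DKO untreated replicate 3) to 28 when 1 library was left out, with 19 without DKO oxLDL 10 replicate 2. Over all genes, 290 were called in the main fit and 315 with the Xist-positive libraries left out. The all-gene count was 185 without DKO untreated replicate 3 and 186 without DKO oxLDL 10 replicate 2. The cause was not tested. Leaving out 1 library gave 34 to 35 calls at oxLDL 60 in Apoe-/- and 35 in DKO cells, 29 to 33 at oxLDL 10 in Apoe-/- cells, 30 to 31 and 33 to 34 between the doses, and 0 for genotype and interaction. With the replicate block of animals, the counts were 34, 35, 30, 30, 30 and 34, and the block changed no count of member calls. Bst2 in Apoe-/- cells and Ifitm3 in both genotypes were called at oxLDL 60 with no limit on the fold.

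No reversed value was a call. Without 1 library, the log2 difference between genotypes ranged from -0.018 to 0.23 for Oas3 and from -0.49 to 0.034 for Ifit2 in untreated cells, and from -0.073 to 0.024 for Rtp4 at oxLDL 10, where it was 0.030 with the Xist-positive libraries left out. The interaction at oxLDL 10 ranged from -0.14 to 0.0038 for Ifitm3 and from -0.14 to 0.12 for Xaf1, which was 0.010 with median ratio scaling and 0.0045 with the Xist-positive libraries left out. The interaction of Ifitm3 at oxLDL 60 was 0.016 with median ratio scaling. Over the alternatives 3 medians of the members changed sign, the genotype difference in untreated cells (-0.23 to 0.090) and at oxLDL 60 (-0.039 to 0.079) and the interaction at oxLDL 60 (-0.077 to 0.24). The lowest member value, 0.334 RPKM, was above the 0.0391 RPKM that 3 reads in a gene of 2000 bases were worth in the shallowest library.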
